A study of Mus musculus with 8 samples.

Results

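Cell division was followed through 43 proliferation and mitosis genes in sorted cells of the neonatal mouse cochlea. The genes were taken by symbol from a list of cell cycle genes, and each of the 43 symbols matched exactly 1 of the 36536 Ensembl genes with a count. All 8 libraries came from *Lfng-EGFP* BAC transgenic mice (strain B6;FVB-Tg(Lfng-EGFP)HM340Gsat/Mmucd), in which the *Lfng* promoter drives GFP, so the GFP- controls carried the transgene too. The 4 groups, with 2 libraries each, were GFP+ and GFP- cells at postnatal day 1 (P1) and GFP+ and GFP- cells at postnatal day 6 (P6), from cochleas that received no treatment and no culture. GFP+ cells were the brightest sorted fraction, which the study assigned to border, inner phalangeal, outer pillar and Deiters' cells and not to inner pillar cells, and animals were pooled for sorting. GFP- cells were the unlabelled cells of the dissociated cochlea, and cells of low GFP fluorescence, which the study thought likely to be inner pillar and inner hair cells, were left out of both fractions. The dissection differed with age, because the lateral wall was taken off the peeled duct at P1 but only partly at P6, so age and dissection cannot be told apart in the age comparisons. The comparisons ask how far supporting cells express division genes relative to the rest of the cochlea, and whether this changes in the first postnatal week.

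The 43 genes cover the steps of a division. The MCM helicase is loaded on origins with the help of Cdc6 and activated with Cdc45 and Mcm10, Pcna clamps the polymerase on DNA, and Rrm1, Rrm2 and Tyms supply nucleotides. E cyclins act at the start of S phase, cyclin A2 in S and G2 phase, and B cyclins with Cdk1 drive entry into mitosis, which ends when the anaphase promoting complex, with Cdc20 and the ubiquitin-conjugating enzyme Ube2c, marks the B cyclins for destruction. In the mammalian organ of Corti, supporting cells leave the cell cycle before birth, and *Cdkn1b* (p27Kip1), an inhibitor of cyclin-dependent kinases, is a known marker of that exit.

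The sequences before the start sites of these genes are shown because all 43 had a negative GFP+ to GFP- log2 ratio at P1. A link between the sequences and these ratios was not tested. Promoters of 35 of the 43 genes were found in RefSeq (GRCm38.p6), 37 promoters in all, each from 250 bases before to 50 bases after the start site. *Aurkb*, *Ccna2*, *Ccne2*, *Cdc25c*, *Foxm1*, *Kif20a*, *Mcm4* and *Tpx2* were not matched. The cell cycle genes homology region (CHR, searched as TTTGAA or TTCGAA on both strands), an element known from promoters of G2/M genes, was present in 20 of the 37 promoters (54.1%) and in 19.2% of all 32851 promoters. The CCAAT box (CCAAT, both strands) was present in 30 (81.1%), against 37.4% of all promoters. An E2F site (TTTNNCGC, both strands), known from promoters of replication genes, was present in 8 (21.6%), against 5.17%. The motifs were split by role: the CHR was in 3 of the 13 replication promoters and in 17 of the 24 others, and the E2F site was in 6 of 13 and in 2 of 24. Near the start site, within 50 bases on either side, a window chosen after the positions were seen, a CHR began in 17 promoters (45.9%) and in 5.31% of all promoters. These matches are descriptions of letters and not evidence of binding.

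Printed 5′ to 3′ on the gene's strand are 4 promoters, those of the 2 mitotic genes and the 2 replication genes with the highest mean level among those that hold a CHR or an E2F site. Capitals mark the CHR in *Mki67* (chr7:135716330-135716629, minus strand, sites beginning at -116 and -98) and *Top2a* (chr11:99024140-99024439, minus strand, sites at -179, -140, -120 and -23). Capitals mark the E2F site in *Mcm6* (chr1:128359656-128359955, minus strand, overlapping sites at -110 and -106 and a site at -47) and *Mcm7* (chr5:138171834-138172133, minus strand, sites at -165 and 16).
*Mki67*: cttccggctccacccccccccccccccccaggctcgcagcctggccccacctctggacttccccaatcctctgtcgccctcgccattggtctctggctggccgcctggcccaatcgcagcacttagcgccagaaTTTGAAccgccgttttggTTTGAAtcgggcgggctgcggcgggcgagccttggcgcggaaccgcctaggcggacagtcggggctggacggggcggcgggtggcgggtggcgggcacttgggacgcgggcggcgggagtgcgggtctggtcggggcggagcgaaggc
*Top2a*: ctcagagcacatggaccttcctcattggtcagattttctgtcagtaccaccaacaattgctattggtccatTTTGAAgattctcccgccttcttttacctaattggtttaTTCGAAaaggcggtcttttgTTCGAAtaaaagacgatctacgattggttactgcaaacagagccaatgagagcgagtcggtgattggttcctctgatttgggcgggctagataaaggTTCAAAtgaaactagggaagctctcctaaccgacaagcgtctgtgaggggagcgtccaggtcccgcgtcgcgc
*Mcm6*: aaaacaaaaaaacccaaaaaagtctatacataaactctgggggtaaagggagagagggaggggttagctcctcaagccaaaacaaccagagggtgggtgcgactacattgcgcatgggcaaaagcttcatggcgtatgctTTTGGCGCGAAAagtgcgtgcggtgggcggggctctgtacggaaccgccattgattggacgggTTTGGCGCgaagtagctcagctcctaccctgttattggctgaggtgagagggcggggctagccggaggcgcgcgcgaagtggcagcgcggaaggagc
*Mcm7*: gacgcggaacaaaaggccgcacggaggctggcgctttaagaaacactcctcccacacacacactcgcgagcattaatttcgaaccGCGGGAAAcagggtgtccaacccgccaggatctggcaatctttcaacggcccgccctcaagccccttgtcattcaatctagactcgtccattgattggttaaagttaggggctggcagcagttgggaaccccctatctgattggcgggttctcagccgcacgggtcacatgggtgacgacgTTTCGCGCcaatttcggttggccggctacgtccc

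**Figure D1:**
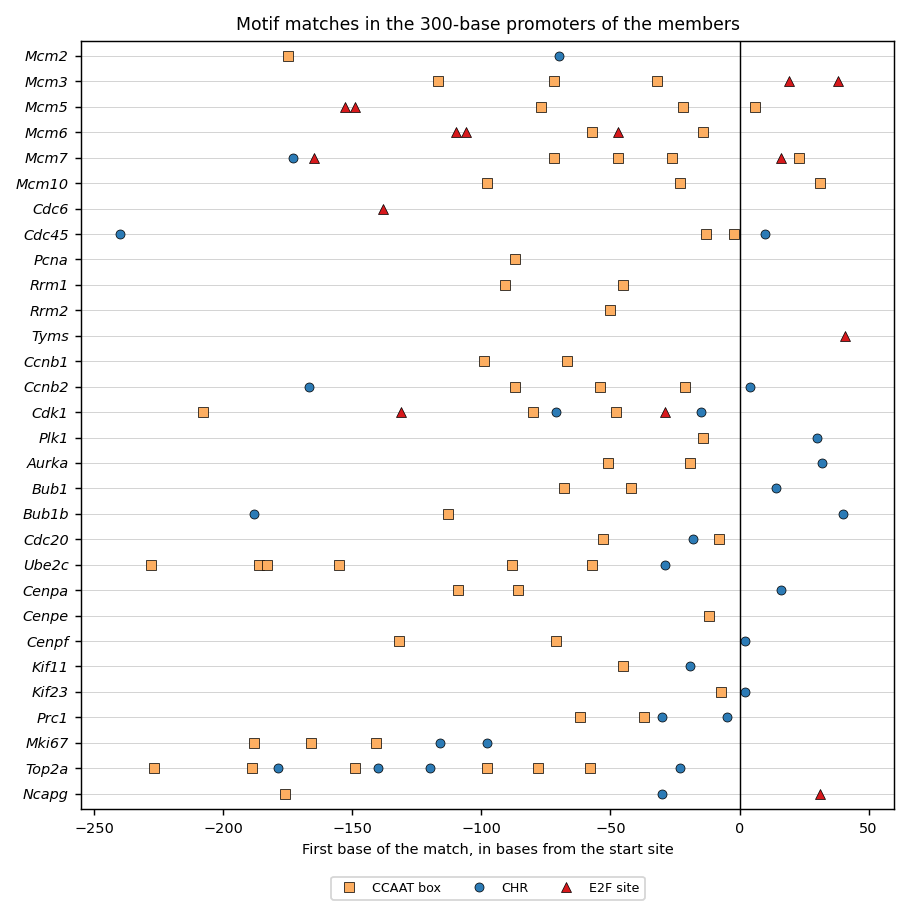
Positions of CCAAT boxes, CHR elements and E2F sites (first base of the match, in bases from the start site, x axis) in the promoters of the genes that hold at least 1 of them (rows). CHR elements cluster near the start site, with a median position of -26 over 28 sites, and CCAAT boxes lie further upstream, with a median of -68 over 63.

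The libraries held between 17769024 and 67695039 counts on genes, which made up 64.7% to 76.2% of the reads in each table, and no member had 0 counts in any library. Levels are given as counts per 1000000 counts on genes in the library (CPM), which can be compared between libraries for 1 gene but not between genes. The 6 supporting cell markers (*Sox2*, *Prox1*, *Fgfr3*, *Lfng*, *Hes5*, *Jag1*) summed to 7745 and 8242 CPM in the P1 GFP+ libraries, 7014 and 5085 at P6 and 139 to 254 in the 4 GFP- libraries. All 6 passed the test higher in GFP+ cells at both ages. Hair cell markers were in the GFP+ fraction too: 6 of 8 passed the test higher in GFP+ cells at P1 and again at P6, and their sum was 208 to 444 CPM in GFP+ and 33.1 to 68.5 CPM in GFP- libraries. Several lists of other cell types were higher in the P6 than in the P1 GFP+ libraries, replicate 1 included. The 6 Schwann and satellite glia markers summed to 579 and 531 CPM at P1 and to 1279 and 2564 CPM at P6, against 1481 and 1734 CPM in P6 GFP- cells. The 7 mesenchyme markers summed to 528 and 473 CPM at P1 and to 1771 and 3486 CPM at P6, the 6 macrophage markers to 8.90 and 6.83 CPM and then 28.9 and 65.4 CPM, and the 4 melanocyte markers to 4.73 and 6.99 CPM and then 40.1 and 97.5 CPM. *Mlana*, a melanocyte marker, was at 0 in both P1 GFP+ libraries. The endothelium sum was 28.0 and 24.1 CPM at P1 and 54.7 and 221 CPM at P6. The erythroid sum was 6.02 and 12.7 CPM and then 23.0 and 83.1 CPM. Between the ages, 0 of 6 glia, 2 of 7 mesenchyme, 1 of 6 macrophage and 1 of 3 melanocyte markers passed higher. Of the 5 endothelium and 5 tested erythroid markers none passed, where 2.86% of all genes passed higher. The pericyte sum was 224 and 250 CPM at P1 and 95.0 and 257 CPM at P6, and the cartilage sum 5668 and 7115 CPM and then 6055 and 9914 CPM, with overlapping ages. P6 GFP+ replicate 2 stood apart from replicate 1 in these markers and in the division genes, so results that rest on it are also given without it.

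Over the 43 genes, the summed level was 356 and 368 CPM in P1 GFP+ cells and 1729 and 1573 CPM in P1 GFP- cells, 4.56 times higher in the GFP- fraction on group means. At P6, the sum was 263 and 351 CPM in GFP+ cells and 629 and 581 CPM in GFP- cells, 1.97 times higher, or 2.30 times against P6 GFP+ replicate 1 alone. The GFP- sum was thus 2.73 times higher at P1 than at P6, whereas the GFP+ sums at the 2 ages differed 1.18 times on means, with P1 GFP+ at 362 ± 8.28 CPM and P6 GFP+ at 307 ± 62.2 CPM (SD, n = 2). In these bulk libraries, fewer dividing cells and less RNA of these genes per cell cannot be told apart.

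**Figure D2:**
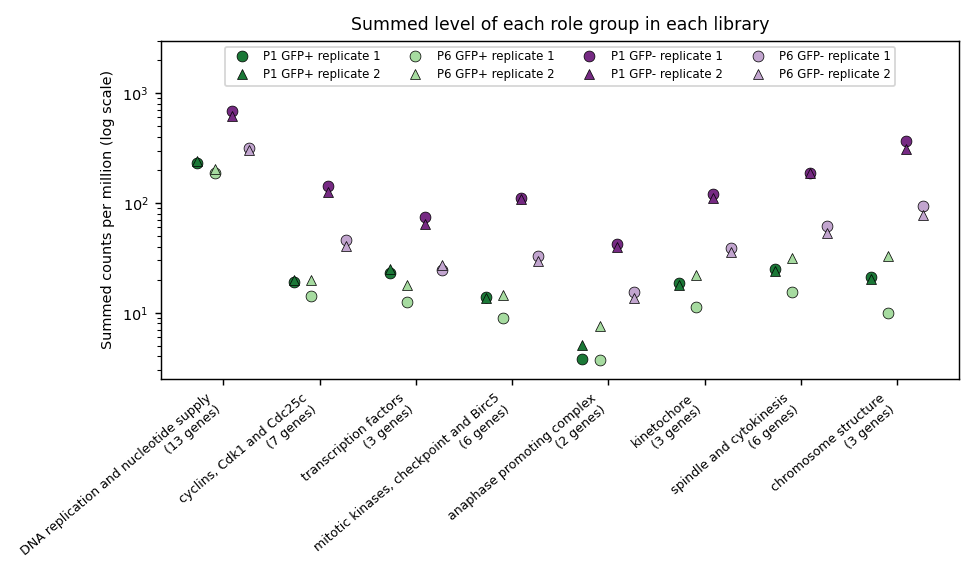
Summed CPM (y axis, log scale) of the members of each role group (x axis) in each of the 8 libraries, circles for replicate 1 and triangles for replicate 2. The P1 GFP- libraries are the highest in every role group, and the gap to GFP+ cells runs from 2.77 times in the replication group to 16.3 times in the chromosome structure group at P1.

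At P1 the gap between fractions was narrower for replication than for the mitotic groups. On summed levels the GFP- to GFP+ ratio of group means was 2.77 for DNA replication and nucleotide supply and 2.88 for the transcription factors. It was 6.91 for the cyclins, *Cdk1* and *Cdc25c*, 7.91 for the mitotic kinases, checkpoint genes and *Birc5*, 9.28 for the anaphase promoting complex, 6.36 for the kinetochore and 7.61 for the spindle and cytokinesis genes. It was 16.3 for the 3 chromosome structure genes. At P6 the ratios spanned 1.59 for replication to 3.96 for chromosome structure, and against P6 GFP+ replicate 1 alone they spanned 1.66 to 8.55. Scaled per exon length as well (RPKM), *Pcna* was the highest member in P1 GFP- cells at 34.3 and *Cdc6* the lowest at 1.42. In P1 GFP+ cells the highest per length were *Mcm2* at 13.2, *Pcna* at 12.4 and *Mcm7* at 11.1 RPKM, all of the replication machinery, and the lowest was *Mcm10* at 0.107 RPKM.

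**Figure D3:**
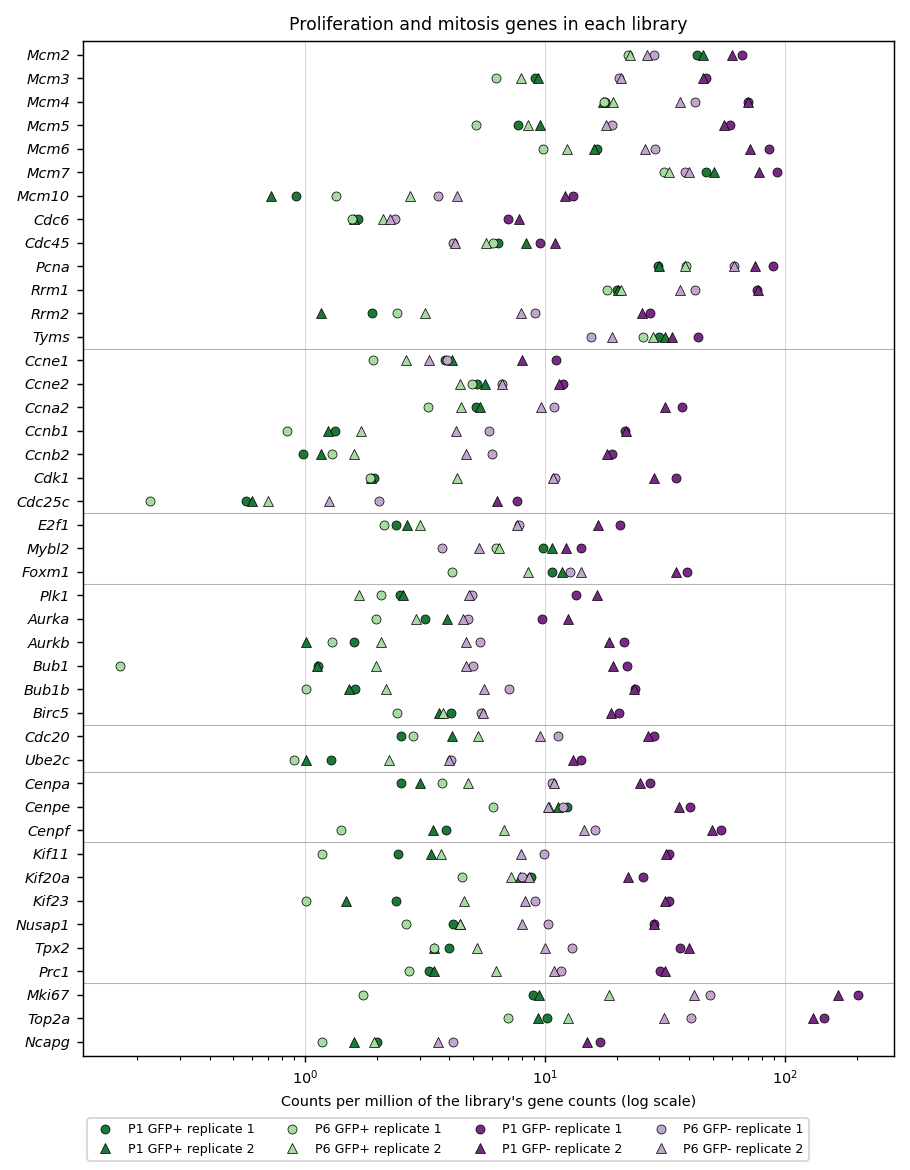
CPM (x axis, log scale) of each of the 43 genes (rows, grouped by role) in each library, circles for replicate 1 and triangles for replicate 2. P1 GFP- points lie furthest right, P6 GFP- points lie to their left, and the 2 P6 GFP+ points of *Mki67* (1.74 and 18.5 CPM) and *Bub1* (0.169 and 1.98 CPM) are the most spread.

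At P1, 39 of the 43 genes were lower in GFP+ than in GFP- cells and none was higher (edgeR quasi-likelihood test, Benjamini-Hochberg adjusted p below 0.01 over 18682 genes). In this comparison 20.7% of all genes tested passed lower and 16.6% passed higher, and DESeq2 also called none of the 43 higher, nor did any reach an unadjusted p below 0.05 in that direction. With a fold change above 4 as well, 29 members passed lower, against 11.4% of all genes. The log2 ratio was negative for all 43 members, with a median of -2.63, while over all genes tested the median was 0.01. All 7 cyclin, *Cdk1* and *Cdc25c* genes, all 6 mitotic kinase, checkpoint and *Birc5* genes, both anaphase promoting complex genes, all 3 kinetochore genes, all 6 spindle genes and all 3 chromosome structure genes passed, as did 10 of 13 replication genes and 2 of 3 transcription factors. The 4 that did not pass were *Mcm2* (log2 ratio -0.41 ± 0.0929 SE, adjusted p = 0.0124), *Cdc45* (-0.39 ± 0.192), *Tyms* (-0.23 ± 0.142) and *Mybl2* (-0.26 ± 0.156). With each library left out in turn, the median of the members was -2.75 to -2.60 and all 43 stayed negative.

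At P6, GFP+ cells had lower values than GFP- cells for most members, but few passed the test. The 5 lower members were *Mcm3*, *Mcm4*, *Mcm6*, *Rrm1* and *Top2a*, where 5.19% of the 18294 genes tested passed lower, and none was higher, where 7.72% of all genes were. None of the 43 passed with a fold change above 4 as well, against 3.10% of all genes. At an unadjusted p below 0.05, not counted over all genes, 31 were lower and 1 was higher. DESeq2 called 22 lower and 0 higher, where it called 2568 and 2323 of the 18294 genes. The log2 ratio was negative for 40 members with a median of -1.34, against -0.02 over all genes. In CPM, both GFP+ libraries lay below both GFP- libraries for 39 members, as they did for 37.6% of all genes tested. Both lay above for *Cdc45*, *Tyms* and *Mybl2*, as for 35.7% of all genes, and the fractions overlapped for *Cenpe*. Without P6 GFP+ replicate 2 the median of the members was -1.69, against -0.06 over all genes. Without P6 GFP+ replicate 1 it was -1.01, against 0.02. Without P6 GFP- replicate 1 it was -1.18 and without P6 GFP- replicate 2 it was -1.41, against 0.01 and 0.02. In each of these fits 40 members were negative. The number that passed moved with the library left out, over all genes too. In these fits the lone library is assumed to vary like the other group.

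In GFP- cells, 37 members were lower at P6 than at P1 (2.34% of the 18920 genes tested passed lower) and none was higher, where 5.04% of all genes passed. No member reached an unadjusted p below 0.05 in the higher direction. DESeq2 called 41 lower and none higher, where it called 1198 and 1852 of the 18920 genes. The fall was moderate: no member passed with a fold change above 4 as well (0.418% of all genes did), and the log2 ratios ran from -1.91 for *Ccnb1* to -0.23 for *Pcna* with a median of -1.44, against -0.02 over all genes. All 6 spindle genes, all 3 kinetochore genes, all 3 chromosome structure genes, both anaphase promoting complex genes and all 3 transcription factors fell. *Mcm4*, *Cdc45*, *Pcna*, *Ccne1*, *Ccne2* and *Aurka* did not pass. The P1 GFP- libraries serve both here and in the P1 comparison, so the pair of results is not independent. Without P6 GFP- replicate 1 the median was -1.47, and without P6 GFP- replicate 2 it was -1.34, with all 43 negative in both fits. Fewer members and fewer of all genes passed lower when either of these libraries was left out. Markers of other cells moved between the ages in the same libraries: the macrophage list passed higher at P6 for 5 of 6 genes. The summed cartilage markers were 18641 and 18485 CPM at P1 and 43967 and 40324 CPM at P6. Of these 4 cartilage genes, 2 passed higher and 1 lower. The part of these other cells in the fall of the division genes was not tested.

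In GFP+ cells no member passed the test between P6 and P1 in either direction (edgeR, 0 lower and 0 higher, where 1.95% and 2.86% of the 17213 genes passed). At an unadjusted p below 0.05, not counted over all genes, 3 were lower and 3 higher. DESeq2 called 1 lower (*Mcm2*) and 0 higher, where it called 1133 and 1904 of the 17213 genes. The log2 ratios were negative for 21 and positive for 22 members, with a median of 0.04. In CPM, both P6 libraries lay below both P1 libraries for 15 members, against 41.1% of all genes, and above for 5 (*Mcm10*, *Pcna*, *Rrm2*, *Ccnb2* and *Cenpa*), against 29.3%, and the 2 ages overlapped for 23. Without P6 GFP+ replicate 2, 34 ratios were negative with a median of -0.49, against -0.02 over all genes. Without P6 GFP+ replicate 1, 15 were negative with a median of 0.32, also against -0.02 over all genes. The ratios of *Mki67* and *Cenpf* were -2.27 and -1.26 without replicate 2 and positive without replicate 1. The pair of P6 libraries thus gave opposite directions for these 2 genes.

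The test of the difference itself, the P6 log2 ratio of GFP+ to GFP- minus the P1 log2 ratio over all 8 libraries, was positive for all 43 members with a median of 1.41, where 10116 of the 19233 genes tested were positive and their median was 0.03. Without P6 GFP+ replicate 2 the median was 0.81 and 3 members (*Foxm1*, *Bub1* and *Mki67*) were negative. Only *Cenpa* passed, against 0.946% of all genes in this direction and 0.988% in the other, in which no member passed or reached an unadjusted p below 0.05. In the positive direction, 36 members had an unadjusted p below 0.05, not counted over all genes. DESeq2 called 18 in this direction, where it called 891 of the 19233 genes. With each library left out in turn the median was 0.81 to 1.64, the highest without P6 GFP+ replicate 1. The number that passed moved with the library left out, over all genes too. With all 8 libraries, marker lists were positive too: all 6 Schwann and satellite glia (median 1.58) and all 7 mesenchyme markers (1.53). So were all 5 neuron (1.91), all 5 endothelium (1.94), all 6 macrophage (1.26) and all 4 melanocyte markers (4.54). Erythroid, pericyte and cartilage lists had 4 of 5, 2 of 3 and 3 of 4 positive. Hair cell markers were positive for 5 of 8, and all 6 supporting cell markers were negative. The positive direction was thus not particular to the members.

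**Figure D4:**
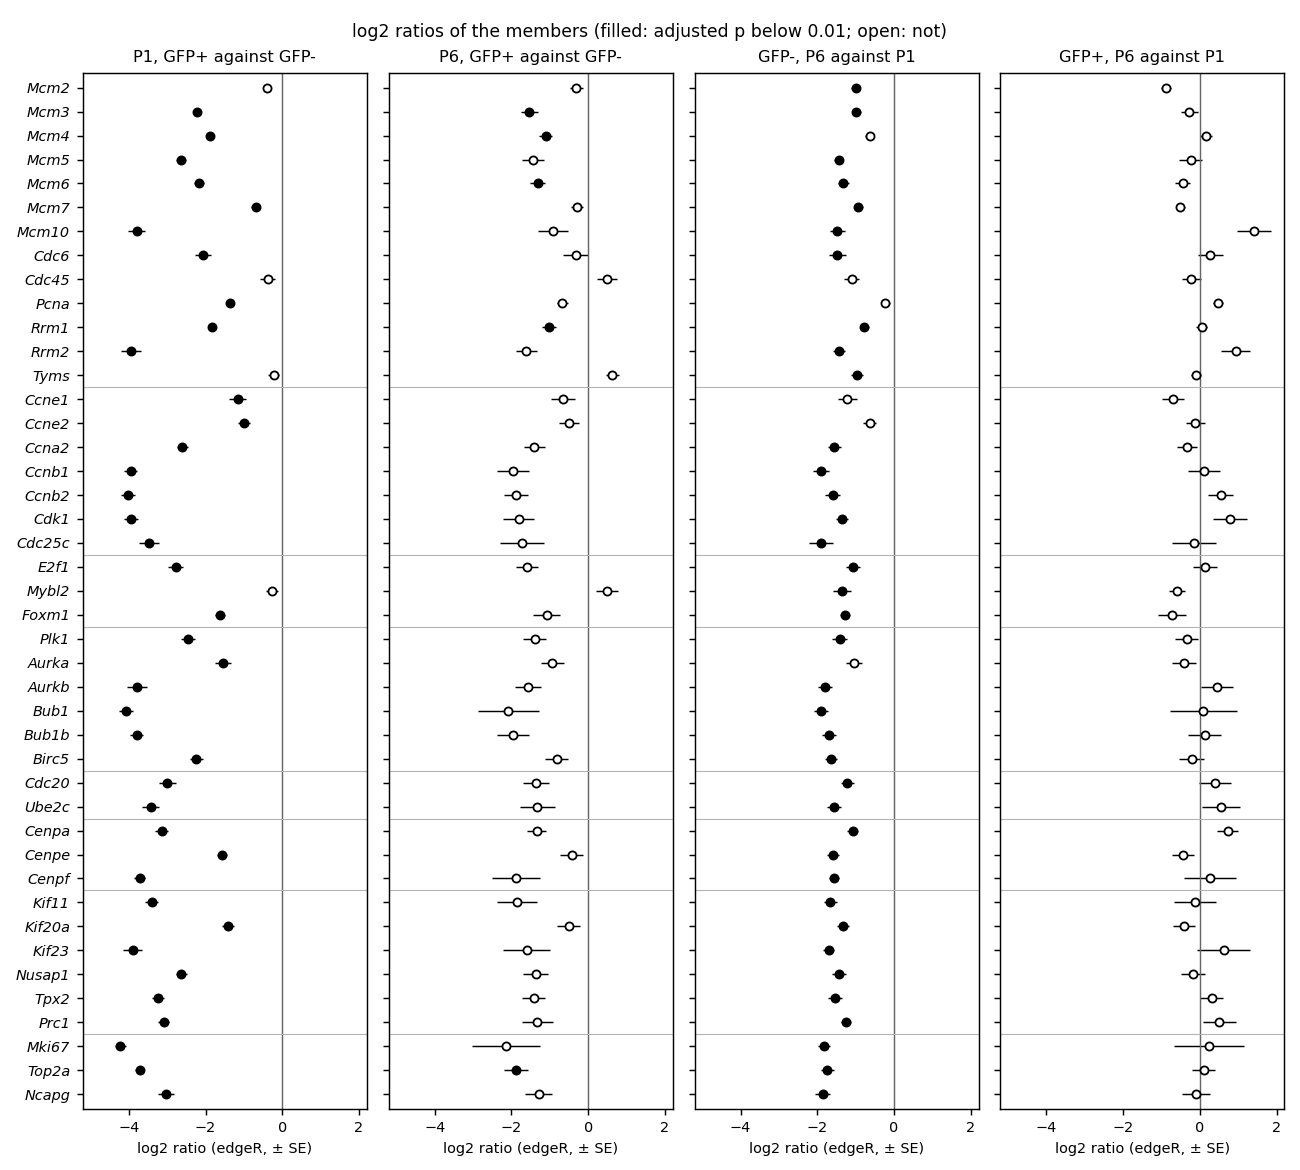
log2 ratio ± SE (edgeR, x axes) of each member (rows, grouped by role) in the 4 comparisons, filled where the adjusted p was below 0.01. At P1 39 members are filled and at P6 5, in GFP- cells 37 lie filled below 0 for P6 against P1, and in GFP+ cells none is filled.

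In the replication group, 10 of 13 genes were lower in GFP+ cells at P1, with log2 ratios from -3.95 to -0.23 over the group. *Mcm2*, a subunit of the MCM helicase, was at 43.2 and 45.6 CPM in P1 GFP+, 66.2 and 60.2 in P1 GFP-, 22.2 and 22.7 in P6 GFP+ and 28.5 and 26.7 CPM in P6 GFP- cells. It fell with age in GFP- cells (log2 ratio -1.002 ± 0.121, adjusted p = 0.00258), and its ratio in GFP+ cells was -0.89 ± 0.128 (adjusted p = 0.0124). *Mcm7*, of the same helicase, was at 47.1 and 50.7 CPM in P1 GFP+, 92.6 and 78.1 in P1 GFP-, 31.3 and 32.9 in P6 GFP+ and 38.4 and 39.96 CPM in P6 GFP- cells. The fractions did not overlap at either age, but its P1 log2 ratio (-0.70 ± 0.111, adjusted p = 0.00305) was small beside those of the other helicase subunits that passed, -2.63 for *Mcm5*, -2.22 for *Mcm3*, -2.17 for *Mcm6* and -1.89 for *Mcm4*. *Mcm7* overlaps *Ap4m1*, *Cops6* and the microRNA genes *Mir25* and *Mir93*, and whether the counting used strand is not given in the sources used here. *Pcna* (chr2:132074898-132079050 in NCBIM37), the sliding clamp, was at 29.6 and 29.9 CPM in P1 GFP+, 89.4 and 75.3 in P1 GFP-, 38.7 and 38.3 in P6 GFP+ and 61.3 and 61.5 CPM in P6 GFP- cells. It was lower in P1 GFP+ cells (-1.36 ± 0.115, adjusted p = 0.000231), and for P6 against P1 its log2 ratio was 0.46 ± 0.127 in GFP+ cells (adjusted p = 0.0601) and -0.23 ± 0.122 in GFP- cells. Named pseudogenes of *Pcna* exist (*Pcna-ps1* and *Pcna-ps2*). Reads without a unique alignment were kept apart from the gene counts, so shared reads could be missing.

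*Mcm10* and *Rrm2* had the lowest P1 GFP+ levels relative to GFP- among replication genes. *Mcm10*, which activates the loaded helicase, was at 0.916 and 0.723 CPM in P1 GFP+, 13.0 and 12.1 in P1 GFP-, 1.35 and 2.75 in P6 GFP+ and 3.57 and 4.30 CPM in P6 GFP- cells. Its log2 ratio was -3.80 ± 0.229 at P1 (adjusted p = 6.73e-05) and -0.92 ± 0.398 at P6 (adjusted p = 0.129, and -1.52 past the test without P6 GFP+ replicate 2), a difference of 2.87 ± 0.465 (adjusted p = 0.0116), the largest of the 43. *Rrm2*, the S phase subunit of ribonucleotide reductase, was at 1.898 and 1.17 CPM in P1 GFP+, 27.4 and 25.4 in P1 GFP-, 2.42 and 3.15 in P6 GFP+ and 9.13 and 7.93 CPM in P6 GFP- cells. Its P1 ratio was -3.95 ± 0.255 (adjusted p = 8.34e-05) and its difference between ages 2.34 ± 0.373 (adjusted p = 0.0111). *Rrm1*, the large subunit of the same enzyme, was lower at P1 at -1.83 and at P6 at -1.03. *Tyms*, which makes thymidylate, was at 29.8 and 31.5 CPM in P1 GFP+, 43.3 and 33.9 in P1 GFP-, 25.7 and 28.1 in P6 GFP+ and 15.6 and 19.1 CPM in P6 GFP- cells, so the order of the fractions turned between the ages. Its P6 log2 ratio was 0.63 ± 0.182 (adjusted p = 0.0447). *Cdc45*, of the active helicase, had the same order, with 6.37 and 8.36 CPM in P1 GFP+, 9.50 and 11.0 in P1 GFP-, 6.08 and 5.69 in P6 GFP+ and 4.13 and 4.21 CPM in P6 GFP- cells. Their differences between ages did not pass (*Tyms* 0.85 ± 0.223, adjusted p = 0.0654, and *Cdc45* 0.86 ± 0.303, adjusted p = 0.145), *Tyms* and *Cdc45* overlap *Gm17448* and *Ufd1l* on the opposite strand, and both genes were singled out after their values were seen.

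The GFP+ to GFP- ratio at P1 was lower for cyclin A2 and the B cyclins than for the E cyclins, a difference between genes that was not tested. *Ccna2*, cyclin A2, was at 5.15 and 5.38 CPM in P1 GFP+, 37.3 and 31.6 in P1 GFP-, 3.26 and 4.49 in P6 GFP+ and 10.9 and 9.60 CPM in P6 GFP- cells, with a P1 log2 ratio of -2.61 ± 0.148 (adjusted p = 5.48e-05). *Ccnb1*, cyclin B1, was at 1.33 and 1.25 CPM in P1 GFP+, 21.6 and 21.7 in P1 GFP-, 0.844 and 1.71 in P6 GFP+ and 5.82 and 4.27 CPM in P6 GFP- cells, with a P1 log2 ratio of -3.95 ± 0.172 (adjusted p = 2.41e-05). *Cdk1*, their kinase, was at 1.94 and 1.89 CPM in P1 GFP+, 35.3 and 28.5 in P1 GFP-, 1.86 and 4.29 in P6 GFP+ and 11.0 and 10.8 CPM in P6 GFP- cells, with a P1 log2 ratio of -3.94 ± 0.185 (adjusted p = 3.03e-05). For these 3 genes the fractions did not overlap at either age, the P6 ratios of -1.40, -1.96 and -1.82 did not pass (adjusted p = 0.0142, 0.0191 and 0.0210) but were -1.63, -2.56 and -2.53 and passed without P6 GFP+ replicate 2, and all 3 fell with age in GFP- cells by 1.56, 1.91 and 1.35 on the log2 scale. *Ccnb2* and the phosphatase gene *Cdc25c* had P1 log2 ratios of -4.02 and -3.47, whereas *Ccne1* and *Ccne2* had -1.17 and -1.01. *Ccna2* and *Ccne2* overlap *Exosc9* and *Ints8* on the opposite strand, and *Ccnb2* has a named pseudogene.

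The 3 transcription factors behaved differently from one another. *E2f1*, an activator of S phase genes, was at 2.40 and 2.65 CPM in P1 GFP+, 20.6 and 16.7 in P1 GFP-, 2.14 and 3.01 in P6 GFP+ and 7.81 and 7.68 CPM in P6 GFP- cells, with a P1 log2 ratio of -2.78 ± 0.192 (adjusted p = 0.000106). *Foxm1*, an activator of mitotic genes, was at 10.7 and 11.7 CPM in P1 GFP+, 39.3 and 35.3 in P1 GFP-, 4.11 and 8.54 in P6 GFP+ and 12.8 and 14.1 CPM in P6 GFP- cells, with a P1 log2 ratio of -1.63 ± 0.123 (adjusted p = 0.000149). *Mybl2* (B-Myb), which acts on mitotic genes with the MuvB complex, was at 9.84 and 10.7 CPM in P1 GFP+, 14.2 and 12.2 in P1 GFP-, 6.25 and 6.46 in P6 GFP+ and 3.73 and 5.32 CPM in P6 GFP- cells. *Mybl2* thus differed little between the fractions, with a log2 ratio of -0.26 ± 0.156 at P1 (adjusted p = 0.207) and 0.48 ± 0.287 at P6 (adjusted p = 0.244). All 3 fell with age in GFP- cells, by 1.07 for *E2f1*, 1.28 for *Foxm1* and 1.36 for *Mybl2* on the log2 scale. In GFP+ cells the age ratio was 0.13 ± 0.303 for *E2f1*, -0.73 ± 0.358 for *Foxm1* and -0.60 ± 0.201 for *Mybl2*, none past the test.

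All 6 mitotic kinase, checkpoint and passenger genes were lower in P1 GFP+ cells. *Aurkb*, the kinase of the chromosomal passenger complex, was at 1.59 and 1.00 CPM in P1 GFP+, 21.4 and 18.5 in P1 GFP-, 1.29 and 2.08 in P6 GFP+ and 5.37 and 4.67 CPM in P6 GFP- cells. *Birc5* (survivin), of the same complex, was at 4.06 and 3.62 CPM in P1 GFP+, 20.4 and 18.9 in P1 GFP-, 2.42 and 3.75 in P6 GFP+ and 5.43 and 5.54 CPM in P6 GFP- cells. *Bub1b* (BubR1), of the spindle checkpoint, was at 1.61 and 1.53 CPM in P1 GFP+, 23.7 and 23.5 in P1 GFP-, 1.01 and 2.18 in P6 GFP+ and 7.09 and 5.58 CPM in P6 GFP- cells. The fractions stood apart at both ages for all 3, and the P1 log2 ratios were -3.78 ± 0.264 for *Aurkb* (adjusted p = 0.000111), -2.24 ± 0.166 for *Birc5* (adjusted p = 0.000138) and -3.79 ± 0.164 for *Bub1b* (adjusted p = 2.38e-05). Within the group the P1 ratio spanned -4.08 for the checkpoint kinase gene *Bub1* to -1.55 for the spindle pole kinase gene *Aurka*, with *Plk1* at -2.46. None passed at P6, where the ratios ran from -2.08 to -0.83. Without P6 GFP+ replicate 2 the ratios ran from -2.62 for *Bub1b* to -1.16 for *Birc5*, apart from *Bub1*, which had 3 counts in the remaining library.

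Both genes of the anaphase promoting complex group were lower in P1 GFP+ cells. *Cdc20*, its activator, was at 2.51 and 4.10 CPM in P1 GFP+, 28.5 and 26.9 in P1 GFP-, 2.81 and 5.26 in P6 GFP+ and 11.3 and 9.51 CPM in P6 GFP- cells, with a P1 log2 ratio of -2.99 ± 0.234 (adjusted p = 0.000173). *Ube2c*, its ubiquitin-conjugating enzyme, was at 1.29 and 1.00 CPM in P1 GFP+, 14.2 and 13.1 in P1 GFP-, 0.900 and 2.24 in P6 GFP+ and 4.05 and 3.99 CPM in P6 GFP- cells, with a P1 log2 ratio of -3.43 ± 0.223 (adjusted p = 8.45e-05). Their P6 ratios were -1.36 ± 0.348 and -1.33 ± 0.447 and did not pass, and without P6 GFP+ replicate 2 they were -1.87 and -2.14 and passed. *Cdc20* overlaps *Elovl1* and *Ube2c* overlaps *Tnnc2* on the opposite strand.

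The kinetochore genes held the 1 member that passed the test of the difference between ages, a call that was lost when any 1 of 6 of the 8 libraries was left out. *Cenpa* (ENSMUSG00000029177, chr5:30969150-30977200 in NCBIM37), the centromeric histone H3 variant, was at 2.51 and 3.01 CPM in P1 GFP+, 27.3 and 24.9 in P1 GFP-, 3.71 and 4.79 in P6 GFP+ and 10.7 and 10.9 CPM in P6 GFP- cells. Both P6 GFP+ libraries lay above both P1 GFP+ libraries, while in GFP- cells both P6 libraries lay below both P1 libraries. Its log2 ratio of GFP+ to GFP- went from -3.15 ± 0.164 at P1 (adjusted p = 4.09e-05) to -1.34 ± 0.249 at P6 (adjusted p = 0.0125), a difference of 1.79 ± 0.268 (adjusted p = 0.00867). The difference was 1.61 to 1.94 with 1 library left out, and it did not pass without any 1 of the P1 libraries or P6 GFP- libraries, nor with a replicate block (adjusted p = 0.0234). Without P6 GFP+ replicate 2 the P6 ratio was -1.52 and passed. It fell with age in GFP- cells by 1.08 (adjusted p = 0.00345), and its age ratio in GFP+ cells was 0.72 ± 0.280 (adjusted p = 0.127). *Cenpe*, a kinetochore motor, was at 12.4 and 11.3 CPM in P1 GFP+, 40.4 and 36.0 in P1 GFP-, 6.08 and 10.4 in P6 GFP+ and 11.9 and 10.3 CPM in P6 GFP- cells, with a P1 log2 ratio of -1.58 ± 0.133 (adjusted p = 0.000228). *Cenpf*, a kinetochore protein of G2 and M phase, was at 3.86 and 3.41 CPM in P1 GFP+, 54.0 and 49.6 in P1 GFP-, 1.41 and 6.76 in P6 GFP+ and 16.1 and 14.5 CPM in P6 GFP- cells, with a P1 log2 ratio of -3.71 ± 0.141 (adjusted p = 1.69e-05).

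The 6 spindle and cytokinesis genes were lower in P1 GFP+ cells and fell in GFP- cells with age. *Kif11* (Eg5), the motor that separates spindle poles, was at 2.44 and 3.33 CPM in P1 GFP+, 32.8 and 32.1 in P1 GFP-, 1.18 and 3.68 in P6 GFP+ and 9.94 and 7.98 CPM in P6 GFP- cells. *Kif23*, the motor of the central spindle, was at 2.40 and 1.49 CPM in P1 GFP+, 32.8 and 31.7 in P1 GFP-, 1.01 and 4.59 in P6 GFP+ and 9.08 and 8.23 CPM in P6 GFP- cells. P1 GFP- cells stood well above the 3 other groups for both genes, and the 2 P6 GFP+ libraries lay on either side of the P1 GFP+ pair. *Tpx2*, a spindle assembly factor that activates Aurora A, was at 3.99 and 3.45 CPM in P1 GFP+, 36.7 and 39.8 in P1 GFP-, 3.43 and 5.19 in P6 GFP+ and 13.0 and 10.0 CPM in P6 GFP- cells. *Prc1*, which bundles central spindle microtubules, was at 3.29 and 3.45 CPM in P1 GFP+, 30.2 and 31.7 in P1 GFP-, 2.70 and 6.26 in P6 GFP+ and 11.7 and 10.9 CPM in P6 GFP- cells. The P1 log2 ratios were -3.41 ± 0.176 for *Kif11*, -3.90 ± 0.245 for *Kif23*, -3.24 ± 0.150 for *Tpx2* and -3.09 ± 0.136 for *Prc1*, with adjusted p-values from edgeR of 4.03e-05, 7.58e-05, 2.91e-05 and 2.53e-05. *Kif20a* and *Nusap1*, which overlap *Cdc23* and *Oip5* on the opposite strand, had P1 ratios of -1.42 and -2.63.

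The 3 chromosome structure genes had the widest gap in summed level at P1, carried by *Mki67* and *Top2a*. *Mki67* (ENSMUSG00000031004, chr7:142881471-142908062 in NCBIM37), which coats mitotic chromosomes and is the usual marker of cycling cells, was at 8.95 and 9.40 CPM in P1 GFP+, 201 and 166 in P1 GFP-, 1.74 and 18.5 in P6 GFP+ and 48.6 and 42.0 CPM in P6 GFP- cells. Its P1 log2 ratio of -4.22 ± 0.134 (adjusted p = 1.16e-05) was the lowest of the 43, and its P6 ratio of -2.15 ± 0.880 did not pass (adjusted p = 0.115). Without P6 GFP+ replicate 2 the P6 ratio was -4.68 ± 0.245 and passed (adjusted p = 4.24e-10). *Top2a* (ENSMUSG00000020914, chr11:98854257-98885503 in NCBIM37), the topoisomerase that untangles sister chromatids, was at 10.2 and 9.32 CPM in P1 GFP+, 145 and 131 in P1 GFP-, 7.03 and 12.5 in P6 GFP+ and 40.7 and 31.4 CPM in P6 GFP- cells. It was lower in GFP+ cells at P1 (-3.71 ± 0.118, adjusted p = 1.16e-05) and at P6 (-1.89 ± 0.310, adjusted p = 0.00908), the only member outside the replication group to pass at P6. *Ncapg*, a condensin subunit, was at 1.99 and 1.61 CPM in P1 GFP+, 17.0 and 15.0 in P1 GFP-, 1.18 and 1.94 in P6 GFP+ and 4.12 and 3.59 CPM in P6 GFP- cells, with a P1 log2 ratio of -3.03 ± 0.208 (adjusted p = 0.000106). In GFP- cells the 3 genes fell with age by 1.83, 1.74 and 1.86 on the log2 scale (edgeR adjusted p = 0.00076, 0.00109 and 0.00155). *Mki67* and *Top2a* are the pair whose promoters carry the CHR letters shown in capitals.

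Among the role groups, the summed level in P6 GFP+ replicate 2 was 1.10 times that in replicate 1 for replication and 3.31 times for chromosome structure, with the others from 1.38 to 2.02 times. Of the 43 members, 39 (90.7%) had a higher CPM in replicate 2 than in replicate 1, against 56.3% of the 18294 genes tested at P6, and the median log2 ratio of replicate 2 to replicate 1 was 0.63 for the members and 0.07 for all genes. The counts of *Mki67* were 31 and 554, a 10.6-fold difference in CPM, and those of *Bub1* were 3 and 59. *Cenpf* was 4.81 times and *Kif23* 4.53 times higher in replicate 2, whereas *Mcm2*, *Mcm7* and *Pcna* differed 1.02, 1.05 and 0.990 times. In the P1 GFP+ pair, 24 of the 43 were higher in replicate 2, with a median of 0.04. Marker lists of other cell types were also higher in P6 GFP+ replicate 2: endothelium 4.04 times, erythroid cells 3.61, pericytes 2.70, melanocytes 2.43, macrophages 2.26, Schwann and satellite glia 2.01, mesenchyme 1.97 and cartilage 1.64 times. Neuron markers were 1.36 and hair cell markers 1.07 times as high, and supporting cell markers 0.725 times. Over the 748 genes at least 16-fold lower in GFP+ than in GFP- cells at P1, the median log2 ratio of replicate 2 to replicate 1 was 1.46 at P6 and -0.00099 at P1. These genes were picked by the test on the P1 libraries, so the P1 value is not an independent comparison. The part of these other cells in the members' levels at P6 was not tested.

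**Figure D5:**
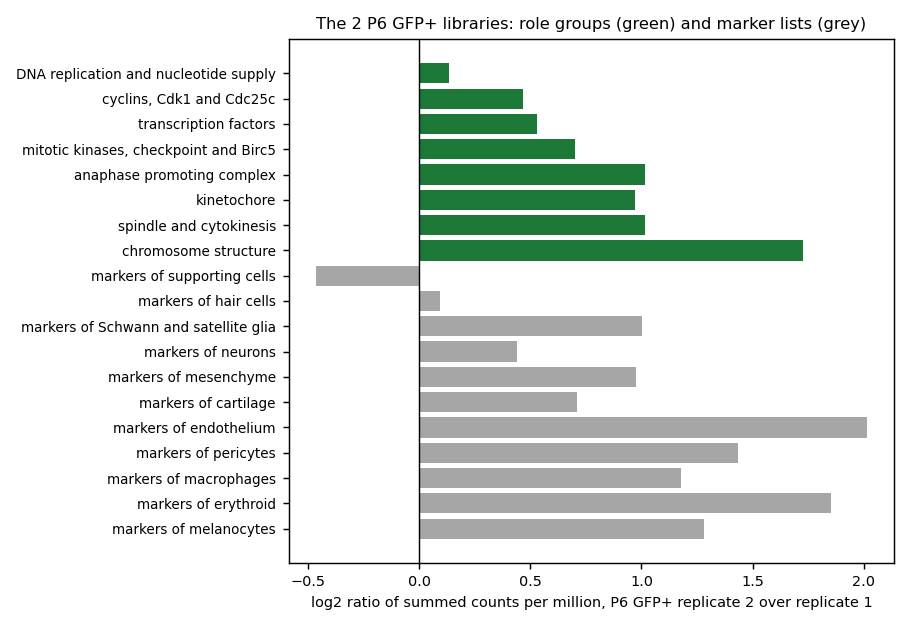
log2 ratio of summed CPM in P6 GFP+ replicate 2 over replicate 1 (x axis) for the 8 role groups of the members (green bars) and 11 marker lists (grey bars). The replication group is near 0 at 0.13 and the chromosome structure group reaches 1.73, between the melanocyte (1.28) and erythroid (1.85) lists, and the supporting cell list is at -0.46.

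Other genes of the same processes, not among the 43, are given by counts. Of 42 further mitosis genes, 40 were lower in GFP+ cells at P1 and none higher, with a median log2 ratio of -2.50, none passed at P6 (edgeR, 36 lower and 0 higher at an unadjusted p below 0.05), and 35 fell with age in GFP- cells and none in GFP+ cells (9 lower and 1 higher at an unadjusted p below 0.05). Of 30 further replication genes, 22 were lower and 2 higher in P1 GFP+ cells. The 2 higher were *Gmnn* (geminin, the inhibitor of origin licensing) at 1.37 ± 0.149 and *Pole* (the leading strand polymerase) at 1.18 ± 0.131, and *Pole* was also higher at P6 at 1.76 ± 0.271 (adjusted p = 0.00764). *Gmnn* fell in GFP+ cells between P1 and P6 by 3.02 on the log2 scale (adjusted p = 0.00297), the only gene of these 2 lists past the test in that comparison. Of the 30 replication genes, 1 was lower and 1 (*Pole*) higher at P6, and 15 fell with age in GFP- cells and none rose. For the difference between ages, *Prim1* (2.13), *Lig1* (1.35) and *Ncapd2* (1.22) passed. Of the 16 inhibitors and G1 regulators, 15 could be tested, and in P1 GFP+ cells 6 were lower and 1 higher. *Cdkn1b* was the one higher, with a log2 ratio of 3.08 ± 0.120 at P1 and 2.48 ± 0.193 at P6, while the D cyclin gene *Ccnd2* was at -4.75 ± 0.142 and the inhibitor gene *Cdkn2c* at -4.05 ± 0.346. *Cdkn1a* (p21), another inhibitor, was higher at P6 than at P1 in both fractions, by 2.39 ± 0.230 in GFP+ and 2.03 ± 0.161 in GFP- cells.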

How the data were processed

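RNA from sorted GFP+ and GFP- cochlear cells (P1 and P6, 2 libraries per group) was sequenced as paired 100-base reads with an unstranded mRNA kit. The authors deposited raw counts per Ensembl gene, with HTSeq, TopHat (1.4.0) and build mm9 in the submitters' processing notes, and the counting mode and strand setting are not given in the sources used here. Symbols, positions and exon lengths came from GENCODE vM1 (NCBIM37). Rows of reads not assigned to a gene were left out (no gene, 13.8% to 25.6% of reads).

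All genes were fitted with edgeR 4.0.16 in R 4.3.3 (filterByExpr with a minimum count of 10 and total of 15, TMM, glmQLFit, glmQLFTest, Benjamini-Hochberg over all genes tested), on the 4 libraries of each comparison, or on 8 for the difference between ages. A gene passed at adjusted p below 0.01. The SE was the log2 ratio divided by the square root of F. All 43 members were tested in every comparison. The alternatives were other normalizations, no filter, DESeq2 1.42.0, a fold change above 4, a replicate block, all 8 or all but 1 library in the fit and each library left out. The fit was tested on simulated data. The members, lists and motifs were chosen with earlier results of these data known, and no test was made over the list. Values in every library are given for the 3 members of each role with the highest mean CPM, and for the 3 with the largest difference between ages. They are also given for *Tyms* and *Cdc45*, singled out after their values were seen. Others are named where a count of 5 or fewer asks for it. The labels do not say that replicates are separate animals, so p-values measure only the spread between these libraries. The replicate pairs differed by more than counting noise.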

Additional observations from a re-analysis of the deposited data

Results flagged for a closer look

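*Cenpa* was the 1 member whose GFP+ to GFP- ratio differed between P1 and P6 by a test of the difference itself (log2 difference 1.79 ± 0.268, edgeR adjusted p = 0.00867 over 19233 genes). The call was lost with a replicate block (adjusted p = 0.0234) and without any 1 of 6 of the 8 libraries, both P1 GFP+, both P1 GFP- and both P6 GFP-, with adjusted p-values of 0.00139 to 0.0658 over the 8. The value was 1.61 without P6 GFP+ replicate 2, and *Cenpa* and *Mcm10* then passed. All 43 members had a positive difference with all libraries in the fit and 40 without P6 GFP+ replicate 2. Among the marker lists, all 7 mesenchyme and all 5 endothelium markers were positive too, while all 6 supporting cell markers were negative. DESeq2 called 18 of the 43, where it called 891 of the 19233 genes in this direction, and no test compared *Cenpa* with the other members.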

How the results depend on the processing

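The P1 counts lay within 1.5 times of 39 under every setting run. At P6, 5 members were lower, against 3 with library totals, 22 with DESeq2, 28 with no filter, 0 with a fold change above 4, 23 with all 8 libraries in the fit, 35 with all but P6 GFP+ replicate 2 in the fit, and 0 to 35 with 1 library left out, where 0 to 1 were higher. In GFP+ cells the 0 members lower at P6 became 1 with DESeq2, with no filter or with all 8 libraries, 5 with all but P6 GFP+ replicate 2 and 0 to 9 with 1 library left out, where 0 to 8 were higher. In GFP- cells the 37 lower became 0 with a fold change above 4, 22 with all 8 libraries and 5 to 41 with 1 library left out. For the difference between ages, 1 member passed, against 18 with DESeq2, 25 with no filter, 0 with a fold change above 4 and 0 to 25 with 1 library left out. Over all genes, 950 were lower at P6 in the fit used above, against 2568 with DESeq2 and 3095 with no filter. For the difference between ages 182 of all genes were higher, against 891 and 1658. The counts with a library left out moved over all genes too and are not results about the members alone. The cause was not tested. Same-numbered replicates did not deviate together (correlations 0.02, 0.09, -0.08 and -0.28). This check rests on 1 replicate difference per group and cannot tell whether same-numbered libraries shared a sort. With a replicate block 39, 4, 0, 32 and 0 members passed in the P1, P6, GFP+, GFP- and age difference tests. Pairing the GFP- libraries crosswise, tried after seeing the data, gave 41 lower. With library totals the median of all genes was -0.21 for GFP- cells between ages and 0.16 for the difference between ages. Scaled by effective library size, the summed levels were 353 CPM in P1 GFP+, 1515 in P1 GFP- and 648 in P6 GFP- cells, against 362, 1651 and 605 CPM.

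Of 1638 alternative values of 26 genes given in every library (all but *Tyms* and *Cdc45*), 1607 kept their direction. The GFP+ ratio of P6 to P1 turned for these genes, given as the range with 1 library left out: *Ccnb1* -0.49 to 0.46, *E2f1* -0.11 to 0.32, *Bub1b* -0.52 to 0.52, *Birc5* -0.55 to 0.017, *Cdc20* -0.066 to 0.78, *Ube2c* -0.25 to 1.00, *Cenpf* -1.26 to 0.94, *Kif11* -1.14 to 0.44, *Kif23* -0.86 to 1.24, *Tpx2* -0.0068 to 0.53, *Prc1* -0.19 to 0.96, *Mki67* -2.27 to 1.08, *Top2a* -0.35 to 0.42 and *Ncapg* -0.50 to 0.15. The difference between ages ranged from -0.075 to 0.92 for *Foxm1* and from -0.47 to 2.87 for *Mki67*, negative without P6 GFP+ replicate 2. With all libraries but that one in the fit, the GFP+ ratio was -0.49 for *Ccnb1*, -0.11 for *E2f1*, -0.51 for *Bub1b*, -0.072 for *Cdc20*, -0.25 for *Ube2c*, -1.25 for *Cenpf*, -0.86 for *Kif23*, -0.0020 for *Tpx2*, -0.19 for *Prc1*, -2.26 for *Mki67* and -0.35 for *Top2a*. With the replicate block it was -0.071 for *Cenpf* and -0.46 for *Mki67*. Genes at a few counts, such as *Bub1* with 3 in P6 GFP+ replicate 1, are limited by depth.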
